A study of Mus musculus with 53 samples.

Results

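Levels of 10 genes of the Notch pathway were read from whole-tissue RNA-seq of the mouse intestine, namely the receptors Notch1, Notch2 and Notch3, the ligands Dll1, Dll4 and Jag1, the receptor-modifying enzyme Lfng and the targets Hes1, Hey1 and Nrarp. The 10 genes were chosen by name, as the rows of the count table whose Ensembl identifiers carry these symbols, out of 55421 identifiers. All 10 were found, and all 10 passed the filter on low counts in each of the 10 comparisons. On GRCm38 the genes whose values carry most of the results lie as follows: Notch3 at chr17:32120820-32166852, Dll1 at chr17:15367354-15376872, Dll4 at chr2:119325784-119335962, Jag1 at chr2:137081456-137116644, Lfng at chr5:140607320-140615545, Hes1 at chr16:30064384-30067796 and Hey1 at chr3:8663359-8667256, and each count covers all annotated exons of a gene.

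Adult mice carrying VilCreER, which recombines floxed alleles in the intestinal epithelium after tamoxifen, were sequenced in 53 libraries of 11 groups. BA tumours (n = 4) were primary tumours of the proximal colon from VilCreER+ BrafV600E/+ Alk5fl/fl mice, in which mutant Braf is switched on and Alk5 (Tgfbr1, the type 1 TGFβ receptor) is deleted, and their controls were proximal colons of VilCreER+ mice (WT, n = 3). Proximal colon at 30 days after induction (d30) came from BA mice (n = 5), from BA mice given ampicillin (1 g/L), neomycin (1 g/L), metronidazole (1 g/L) and vancomycin (500 mg/L) in the drinking water (n = 5), from VilCreER+ Alk5fl/fl mice (A, n = 4), from A mice given sulindac (0.4 g/L) for the first 14 days (n = 4) and from VilCreER+ WT mice (n = 4). Small intestine was sampled 4 days after induction from VilCreER+ Apcfl/fl mice (spelled APCfl/fl in the labels, n = 10) and VilCreER+ WT mice (n = 6), and tumours of VilCreER+ Apcfl/+ mice (n = 5) were compared with VilCreER+ WT small intestine (n = 3). This last pair had an inbred C57BL6/J background per the labels and all other groups a mixed C57BL/6J background. No label ties every library to a separate mouse, so the p-values measure the spread between these libraries. The allele changes are confined to epithelial cells by the promoter of the Cre, whereas the libraries hold RNA of the whole tissue, so fewer cells of a type and less RNA per cell cannot be told apart in any value below.

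Notch receptors are cut when a Delta-like or Jagged ligand on a neighbouring cell binds them, and the freed intracellular part joins the DNA-binding protein Rbpj and Maml co-activators to switch on targets such as Hes1. In the intestinal crypt, Notch signalling maintains progenitors in an absorptive fate by having Hes1 repress Atoh1, the master factor of secretory cells, and Dll1 and Dll4 are presented by secretory cells to stem cells. Outside the epithelium, Dll4, Jag1, Notch1 and Hey1 are also used by vascular endothelium and Notch3 by pericytes and vascular smooth muscle.

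Promoter sequences, the 250 bases before the annotated start, were read from RefSeq on GRCm38.p6 for 8 of the 10 genes, Hes1 and Hey1 having no entry in the table used. The letters TGGGAA, a core of the Rbpj binding sequence, and their reverse complement TTCCCA were searched on both strands. They were present in 1 of the 9 promoters of these 8 genes (Dll1 has 2 promoters), namely that of Lfng, and in 21.6% of 32851 promoters of the same length. A match is a description of the letters only. The promoters of Lfng, which rose in both Apc comparisons, and of Dll4, which fell in d30 BA colon, are shown 5′ to 3′ on the strand of the gene, with the searched letters in capitals. They lie at chr5:140607091-140607340 (plus strand) and chr2:119325534-119325783 (plus strand).
Lfng: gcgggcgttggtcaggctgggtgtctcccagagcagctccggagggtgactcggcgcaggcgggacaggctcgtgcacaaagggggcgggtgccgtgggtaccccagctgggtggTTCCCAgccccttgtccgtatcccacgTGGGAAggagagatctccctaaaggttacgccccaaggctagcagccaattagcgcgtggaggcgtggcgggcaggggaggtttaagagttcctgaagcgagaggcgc
Dll4: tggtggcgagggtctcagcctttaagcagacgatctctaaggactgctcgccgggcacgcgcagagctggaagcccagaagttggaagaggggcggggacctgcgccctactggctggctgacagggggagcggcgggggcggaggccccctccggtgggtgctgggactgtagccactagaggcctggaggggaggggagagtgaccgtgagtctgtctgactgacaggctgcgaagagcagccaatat
The 2 matches in the Lfng promoter begin 135 and 108 bases before the start, and the window of Dll4 holds none.

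Between 516985 and 32824795 reads per library were counted on genes. Apcfl/fl library 1 had the lowest total, the next lowest being 10005066, and Apcfl/fl library 8 had the lowest Apc level of its group (34.2 CPM against 124.8 to 174.1 in the other 9). Whole-gene Tgfbr1 levels of d30 A colon (33.4 to 63.5 CPM) overlapped those of d30 WT colon (35.2 to 68.2 CPM), and the counts do not separate deleted from intact exons. Ddx3y, a Y-linked gene, was above 10 CPM in 3 of 4 BA tumours and 0 of 3 WT proximal colons, in 1 of 5 Apcfl/+ tumours and 3 of 3 WT small intestines, and in all d30 libraries. At day 4, Ddx3y was above 10 CPM in 4 of 10 Apcfl/fl and 4 of 6 WT small intestines. The gene model Gm13394 was above 10 CPM in every d30 library of mutant mice and in 0 of 4 d30 WT libraries, in 3 of 4 BA tumours and 0 of 3 WT proximal colons, and in 0 of 5 Apcfl/+ tumours and 3 of 3 WT small intestines. What it marks cannot be told apart from genotype in these comparisons. In 4-day small intestine it was above 10 CPM in 6 of 10 Apcfl/fl and 3 of 6 WT libraries. All 5 marker lists of cell types (endothelial, mural and smooth muscle, fibroblast, immune and epithelial, 10 genes each) were detected in every group. Of the 10 genes, 2051 of the 2582 exon bases of Nrarp are shared with the antisense gene Gm38287, which was listed with 0 reads in all 53 libraries, so the level of Nrarp is uncertain.

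**Figure D1:**
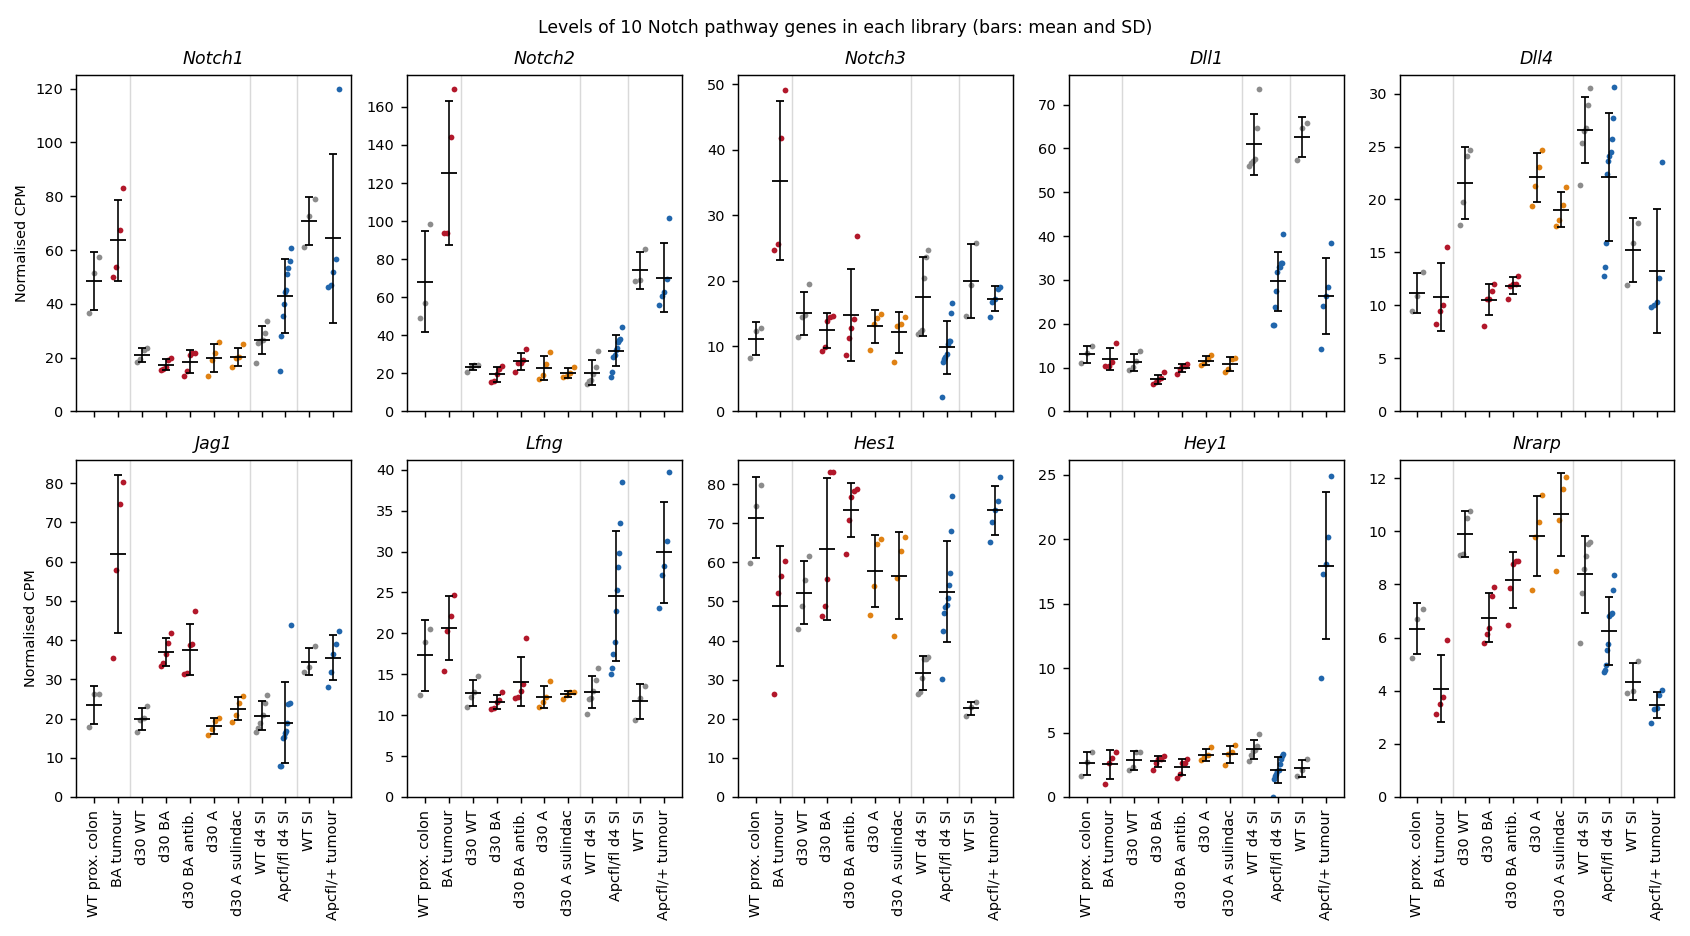
Normalised CPM (y axis, linear from 0) of the 10 genes in each of the 53 libraries by group (x axis), with points for libraries and bars for the group mean and SD. Jag1 and Notch3 sit highest in BA tumours, Hey1 in Apcfl/+ tumours, and Dll1 in both groups of WT small intestine.

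Each group was compared with its own WT by the quasi-likelihood test of edgeR, and a gene was called where its Benjamini-Hochberg adjusted p, over all genes tested, was under 0.05. In BA tumours 2 of the 10 genes rose (7.46% of all genes did) and 0 fell (5.71%), in a comparison that called 13.2% of all genes, and the libraries of the groups did not overlap for 2 of the 10 (27.5% of all genes). In d30 BA colon 1 rose (25.8%) and 4 fell (29.3%), with 55.1% of genes called and no overlap for 4 of the 10 (45.4%). In d30 BA colon with antibiotics 2 rose (21.8%) and 1 fell (17.8%), with 39.6% called and no overlap for 4 (32.8%). The 4-day Apcfl/fl small intestine had 4 genes higher (27.5%) and 3 lower (26.7%), with 54.2% called and no overlap for 1 (16.9%). In Apcfl/+ tumours 4 of the 10 were called (61.5% of all genes), namely Hes1, Hey1, Lfng and Dll1, and the same 4 did not overlap (59.2%). None of the 10 was called in d30 A colon (0.141% of genes called) or in d30 A colon with sulindac (0.0507%), where the counts at an unadjusted p under 0.05 and by the DESeq2 Wald test were also 0. Beside these shares of all genes, the counts over 10 genes are no result about the pathway, and the genes are described singly. Comparisons of the 4 mutant d30 groups with WT use the same 4 WT libraries.

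**Figure D2:**
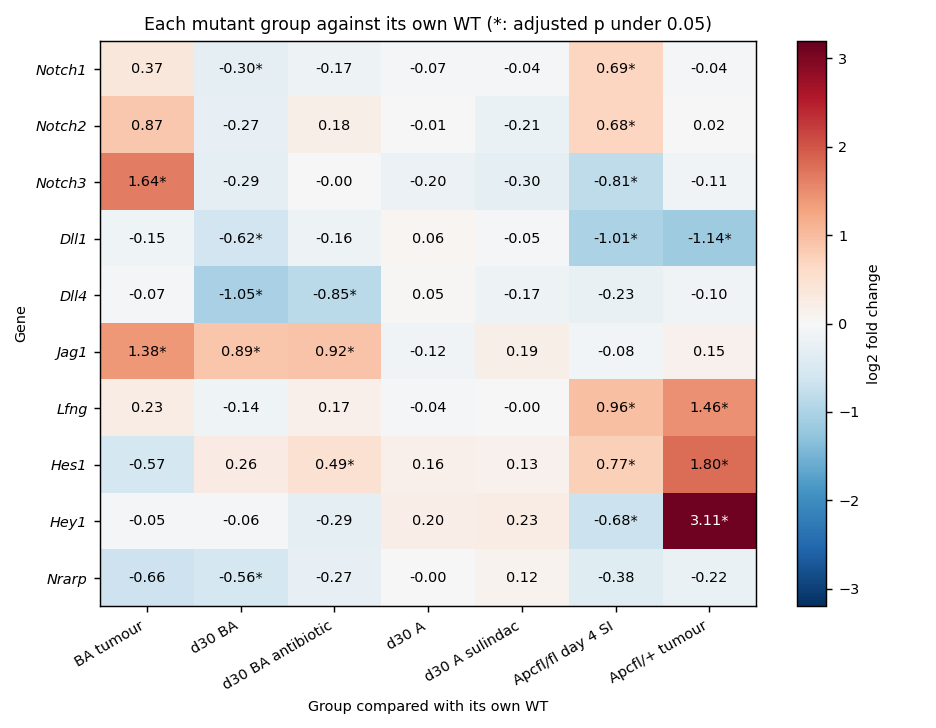
Log2 fold change (colour and number) of the 10 genes (rows) in each mutant group against its own WT (columns), with an asterisk where the adjusted p was under 0.05. Values run from -1.14 (Dll1 in Apcfl/+ tumours) to 3.11 (Hey1 in Apcfl/+ tumours), and the columns of d30 A colon with and without sulindac hold no asterisk.

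Among the receptors, Notch3 rose in BA tumours and all 3 were called in 4-day Apcfl/fl small intestine. Notch3 measured 41.8, 25.6, 24.6 and 49.1 normalised CPM in the 4 BA tumours and 8.24, 12.8 and 12.3 in the 3 WT proximal colons. Every BA tumour lay above every WT colon, a log2 fold change of 1.64 ± 0.30 (SE, edgeR adjusted p = 0.00936). The call did not hold with a term for Ddx3y (1.82, adjusted p = 0.0826) or without WT proximal colon replicate 1 (1.46, adjusted p = 0.0584), the sign staying positive in both fits. Notch2 read 93.6, 169, 93.7 and 144 normalised CPM in the tumours against 57.2, 98.5 and 49.2 in the WT colons. The groups overlapped and the log2 difference of 0.87 ± 0.32 was not called (edgeR adjusted p = 0.113). Notch1 differed by 0.37 ± 0.22 on the same scale (edgeR adjusted p = 0.322).

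In the Apcfl/fl small intestine, Notch1 and Notch2 rose and Notch3 fell. Notch1 ran from 15.05 to 60.8 normalised CPM (median 44.7, n = 10) in Apcfl/fl and from 18.0 to 33.6 (median 26.4, n = 6) in WT tissue. Library 8 was the lowest of the 10, below every WT value, and was also the lowest of its group in Notch2, Notch3, Jag1 and Lfng and the highest in Hes1 and Hey1. The log2 fold change of Notch1 was 0.69 ± 0.22 (edgeR adjusted p = 0.0137). Notch2 had medians of 32.9 in Apcfl/fl and 18.1 in WT, a log2 fold change of 0.68 ± 0.19 (edgeR adjusted p = 0.00572), with overlapping groups. Notch3, at 2.13 to 16.6 normalised CPM (median 9.60) against 11.8 to 24.6 (median 16.4), fell by 0.81 ± 0.29 on the log2 scale (edgeR adjusted p = 0.0238). That call was lost without WT replicate 5 (adjusted p = 0.0667), WT replicate 6 (0.0629) or WT replicate 4 (0.05), each fitted with edgeR. In these 3 WT libraries Gm13394 was above 10 CPM, and Notch3 read 20.3 (replicate 4), 24.6 (replicate 5) and 23.7 (replicate 6) normalised CPM. In WT replicates 1 to 3 Gm13394 was below 10 CPM, and Notch3 read 12.2, 11.8 and 12.4. Apcfl/fl libraries below 10 CPM of Gm13394 had Notch3 at 7.97 to 10.4, and those above it at 2.13 to 16.6. The part of this split in the Notch3 result was not tested. Both Notch1 and Notch2 stayed called in all 16 fits that left out a library. Beside these values, 7 of 10 endothelial markers and 2 of 10 mural and muscle markers fell, as did 6 of 10 immune markers, and none of these lists had a marker that rose. Summed endothelial markers ran from 105 to 192 normalised CPM in Apcfl/fl and from 212 to 255 in WT tissue, and summed mural and muscle markers from 229 to 1661 and from 675 to 1872. Summed immune markers ran from 164 to 388 and from 376 to 611. Their part in the result was not tested.

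In Apcfl/+ tumours none of the 3 receptors was called. Notch1 read 47.0, 119.9, 51.9, 46.4 and 56.7 normalised CPM in the tumours and 61.1, 72.5 and 78.8 in WT small intestine. Tumour 2 alone lay above the WT range and the other 4 tumours lay below it. The log2 fold change of Notch1 was -0.04 ± 0.31 with all libraries, and -0.38 without tumour 2 (edgeR adjusted p = 0.0134), so that this library decided the call. Notch2 differed by 0.02 ± 0.19 and Notch3 by -0.11 ± 0.18 (log2) in these tumours. In d30 BA colon, Notch1 was 19.2, 16.5, 19.8, 15.6 and 15.6 normalised CPM against 23.0, 18.3, 19.5 and 23.6 in d30 WT colon. The groups overlapped, and the decrease of 0.30 ± 0.11 on the log2 scale (edgeR adjusted p = 0.0366) missed the threshold with size factors of DESeq2 (adjusted p = 0.0504), in DESeq2 itself (0.0505), with no filter on low counts (0.0543) and with all 5 d30 groups in 1 fit (0.188). It also missed it without d30 BA replicate 2, 4 or 5 or d30 WT replicate 1 or 4, with an edgeR adjusted p of 0.0787 to 0.111.

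In the colon Jag1 rose in BA tumours and at d30, and Dll1 and Dll4 fell at d30. Jag1, which encodes the Jagged ligand used in endothelium and in several epithelia, read 74.6, 35.3, 57.8 and 80.3 normalised CPM in the 4 BA tumours against 17.8, 26.3 and 26.3 in the 3 WT colons. Every tumour lay above every WT colon, a log2 fold change of 1.38 ± 0.29 (edgeR adjusted p = 0.0165). This call was lost with a term for Ddx3y (1.57, adjusted p = 0.103) and without WT proximal colon replicate 1 (1.21, adjusted p = 0.0913) or replicate 3 (1.48, adjusted p = 0.0578). In BA tumours, 5 of 10 endothelial, 4 of 10 fibroblast and 5 of 10 immune markers also rose, and of 10 mural and muscle markers 1 rose and 2 fell. Summed endothelial markers were 166 to 353 normalised CPM in the tumours and 116 to 144 in WT proximal colon, and summed mural and muscle markers 1944 to 3200 and 2106 to 8233. Their part in the results for Jag1 and Notch3 was not tested.

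At d30 Jag1 was also higher in BA colon, where Dll1 and Dll4 were lower. Jag1 read 33.4, 41.8, 36.6, 39.2 and 34.2 normalised CPM in d30 BA colon and 20.1, 16.6, 19.6 and 23.2 in d30 WT colon. The groups did not overlap, and the log2 fold change was 0.89 ± 0.10 (edgeR adjusted p = 3.33e-05). Dll4, the Delta-like ligand of endothelial tips and of secretory cells, read 10.6, 10.6, 12.0, 8.11 and 11.4 against 17.6, 24.1, 19.8 and 24.6. No BA library reached the lowest WT library, and Dll4 fell by 1.05 ± 0.13 on the log2 scale (edgeR adjusted p = 6.85e-05). Dll1, at 7.15, 6.72, 9.03, 6.19 and 7.57 normalised CPM against 9.36, 10.1, 11.5 and 13.7, fell by 0.62 ± 0.15 (log2, edgeR adjusted p = 0.00373), again without overlap. These 3 calls held in every alternative fit and in all 9 fits that each left out a library. In the same comparison 9 of 10 epithelial markers rose. Of the other lists, 8 of 10 mural and muscle, 8 of 10 fibroblast, 4 of 10 endothelial and 2 of 9 tested immune markers fell. Summed endothelial markers were 150.0 to 179.7 normalised CPM in d30 BA colon and 178 to 226 in d30 WT colon, summed epithelial markers 21633 to 25952 and 11063 to 13274. The part of these markers in the ligand results was not tested.

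The d30 BA colon was also set against d30 A colon, which shares the Alk5fl/fl allele and lacks mutant Braf. There 1 of the 10 genes was higher (21.7% of all genes) and 3 were lower (23.6%), where 45.3% were called, and 3 of the 10 did not overlap (36.1%). Jag1 read 17.2, 15.8, 20.2 and 19.3 normalised CPM in d30 A colon, below all 5 BA values, a log2 fold change of 1.04 ± 0.11 in BA (edgeR adjusted p = 4.36e-05). Dll4 read 24.7, 21.2, 23.0 and 19.4, above all 5 BA values, a decrease of 1.05 ± 0.13 (log2, edgeR adjusted p = 8.69e-05). Dll1 was 11.03, 10.5, 12.0 and 12.8 in d30 A colon, and lower in BA by 0.65 ± 0.14 (log2, edgeR adjusted p = 0.00348). In this comparison 9 of 10 epithelial markers rose. Of 10 markers in each list, 6 fibroblast, 4 mural and muscle, 3 immune and 2 endothelial markers fell. Summed epithelial markers were 10149.9 to 19075 normalised CPM in d30 A colon, and the part of these lists in the result was not tested. Gm13394 was above 10 CPM in every library of both groups. The d30 A colon itself differed from d30 WT colon by -0.20 (Notch3) to 0.20 (Hey1) on the log2 scale, with SEs of 0.14 to 0.23.

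In BA mice given antibiotics, Jag1 was again higher and Dll4 lower than in d30 WT colon, and Dll1 was not called. Against d30 WT colon, antibiotic-treated BA colon had Jag1 at 38.9, 31.6, 31.3, 47.3 and 38.7 normalised CPM. Its log2 fold change was 0.92 ± 0.13 (edgeR adjusted p = 0.000409). Dll4 read 12.8, 10.6, 11.9, 12.0 and 12.1 normalised CPM and fell by 0.85 ± 0.12 on the log2 scale (edgeR adjusted p = 0.000296). Both genes lay outside the range of d30 WT colon in all 5 treated libraries. Here too 9 of 10 epithelial markers rose (summed level 19162 to 29865 normalised CPM). Of the immune markers 4 of 9 tested fell, as did 1 of 10 endothelial markers. The part of these markers in the result was not tested. Dll1 read 10.4, 8.53, 9.60, 10.9 and 10.3 normalised CPM and was not called against WT (log2 fold change of -0.16, edgeR adjusted p = 0.355). In the direct comparison of treated with untreated BA colon, Dll1 was the 1 gene of the 10 called, where 13% of all genes were called, with a log2 fold change of 0.45 ± 0.12 (edgeR adjusted p = 0.0336). The call was lost with no filter on low counts (adjusted p = 0.0747) and with all 5 d30 groups in 1 fit (0.0512). It was also lost without d30 BA replicate 1, 2, 4 or 5 or treated replicate 1, 4 or 5, with an edgeR adjusted p of 0.0518 to 0.0825. Jag1 differed by 0.02 ± 0.11 and Dll4 by 0.18 ± 0.11 (log2) between treated and untreated BA colon. Sulindac given to A mice left none of the 10 genes, and 0% of all genes, past the threshold against untreated A colon, at an unadjusted p under 0.05 for 0 of the 10 and 460 of 17568 genes, and DESeq2 called 0 of the 10. Jag1 had the largest difference of the 10 in that comparison, 0.32 ± 0.15 (log2), with 23.9, 25.7, 20.97 and 19.2 normalised CPM under sulindac.

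In the small intestine Dll1 fell in both Apc comparisons, and neither Dll4 nor Jag1 was called with all libraries. Dll1 ran from 19.6 to 40.4 normalised CPM (median 32.4, n = 10) in 4-day Apcfl/fl tissue and from 56.0 to 73.5 (median 57.4, n = 6) in WT tissue. No Apcfl/fl library reached the lowest WT library, and Dll1 fell by 1.01 ± 0.13 on the log2 scale (edgeR adjusted p = 1.02e-05). In Apcfl/+ tumours Dll1 read 26.4, 14.3, 38.5, 28.5 and 24.1 normalised CPM against 65.7, 57.3 and 64.7 in WT small intestine. All 5 tumours lay below all 3 WT libraries, a decrease of 1.14 ± 0.26 (log2, edgeR adjusted p = 0.0046). In these tumours 6 of 10 epithelial markers rose and 1 fell, their summed level being 6373 to 12159 normalised CPM against 7336 to 8604, and their part in the Dll1 result was not tested. With a term for Ddx3y the tumour difference was -1.13 with an adjusted p of 0.095 in edgeR. Dll4 was 9.83, 23.5, 10.3, 10.0 and 12.6 normalised CPM in Apcfl/+ tumours and 12.0, 17.8 and 15.9 in WT small intestine. Tumour 2 was the highest of all 8 libraries, and the log2 fold change was -0.10 ± 0.31, or -0.41 without tumour 2 (edgeR adjusted p = 0.0486). In Apcfl/fl tissue Dll4 differed by -0.23 ± 0.15 (log2) and Jag1 by -0.08 ± 0.26, neither called.

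**Figure D3:**
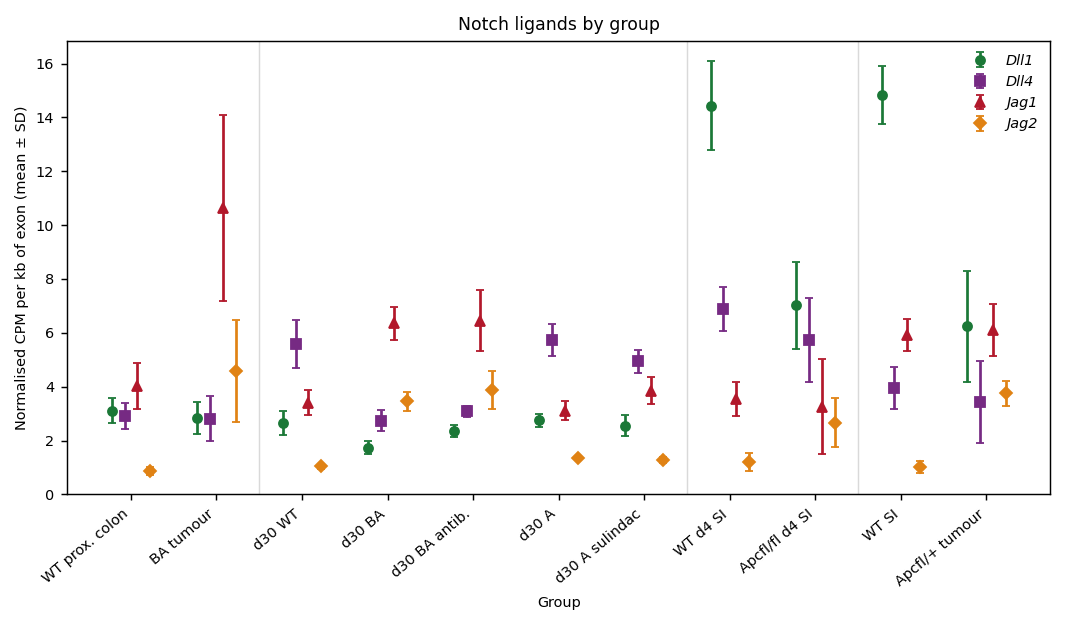
Mean ± SD of normalised CPM per kb of exon (y axis, linear from 0) of 4 Notch ligands by group (x axis). Dll1 is highest in both WT small intestines (14.4 and 14.8) and Jag1 in BA tumours (10.6).

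Levels per kb of exon allow the ligands to be set against each other within a group. In WT small intestine Dll1 was the most abundant of the measured ligands, at 14.4 ± 1.6 normalised CPM per kb (SD, n = 6) at day 4 and 14.8 ± 1.1 (SD, n = 3) in the tissue paired with the tumours. In d30 WT colon Dll4 led with 5.59 ± 0.89 per kb, above Jag1 at 3.41 ± 0.46 and Dll1 at 2.65 ± 0.45 (SD, n = 4). In d30 BA colon the order was turned, with Jag1 at 6.35 ± 0.60, Dll4 at 2.74 ± 0.39 and Dll1 at 1.74 ± 0.26 per kb (SD, n = 5). Jag2, a ligand outside the 10 genes, rose from 1.04 ± 0.095 to 3.45 ± 0.35 per kb in the same groups. WT proximal colon paired with the BA tumours differed from d30 WT colon in its order, with Jag1 at 4.03 per kb ahead of Dll1 at 3.10 and Dll4 at 2.90. No test was run between these WT groups, which are controls of separate comparisons.

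Lfng, the Fringe enzyme that adds sugar to Notch receptors and alters which ligands bind them, rose in both Apc comparisons. It ran from 15.05 to 38.5 normalised CPM (median 24.0, n = 10) in Apcfl/fl and from 10.1 to 15.7 (median 12.5, n = 6) in WT tissue. The ranges met at their ends, and the log2 fold change was 0.96 ± 0.19 (edgeR adjusted p = 0.000476). In Apcfl/+ tumours Lfng read 31.3, 39.7, 23.1, 27.2 and 28.2 normalised CPM against 13.6, 9.37 and 12.1. All tumours lay above all WT libraries, a log2 fold change of 1.46 ± 0.20 (edgeR adjusted p = 0.000357). Both calls held in every alternative and with each library left out. In BA tumours Lfng read 20.3, 15.4, 24.7 and 22.1 against 20.5, 12.4 and 19.0 in WT proximal colon, overlapping groups whose log2 difference of 0.23 ± 0.25 was not called.

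Of the targets, Hes1 and Hey1 rose in Apcfl/+ tumours and neither was called in BA tumours. Hes1, the repressor of Atoh1, read 70.2, 81.9, 75.8, 73.5 and 65.1 normalised CPM in Apcfl/+ tumours and 20.7, 24.2 and 22.9 in WT small intestine. The groups were far apart, with a log2 fold change of 1.80 ± 0.10 (edgeR adjusted p = 1.14e-05). Hes1 was also higher in 4-day Apcfl/fl tissue, from 30.27 to 76.8 normalised CPM (median 50.0, n = 10) against 26.3 to 35.9 (median 32.9, n = 6), a log2 fold change of 0.77 ± 0.17 (edgeR adjusted p = 0.000874). The Apcfl/fl library inside the WT range was the shallow library 1. In BA tumours Hes1 read 56.5, 26.3, 52.3 and 60.2 against 79.9, 59.9 and 74.5 in WT proximal colon. BA tumour 4 overlapped the lowest WT library, and the log2 difference of -0.57 ± 0.27 was not called (edgeR adjusted p = 0.208). Antibiotic-treated d30 BA colon had Hes1 at 78.7, 76.6, 70.8, 62.2 and 78.1 normalised CPM against 43.1, 61.7, 55.4 and 48.7 in the 4 d30 WT libraries, a log2 fold change of 0.49 ± 0.11 (edgeR adjusted p = 0.00564). Untreated d30 BA colon spanned 46.3 to 83.1, overlapping WT, and was not called (0.26 ± 0.19, log2). Treated and untreated BA colon differed by 0.22 ± 0.17 (log2, edgeR adjusted p = 0.391), so the difference between them was not past the threshold.

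Hey1, a related repressor known from endothelium and heart, was low in 10 groups and high in 1. It read 17.3, 9.24, 18.1, 24.9 and 20.2 normalised CPM in Apcfl/+ tumours and 1.65, 2.96 and 2.11 in WT small intestine. The lowest tumour, library 2, was still above every library of the other 10 groups, and the log2 fold change was 3.11 ± 0.36 (edgeR adjusted p = 0.000171). In 4-day Apcfl/fl tissue Hey1 ran from 0 to 3.31 normalised CPM (median 2.08, n = 10), the 0 being the shallow library 1, against 2.75 to 4.89 (median 3.62, n = 6). It fell by 0.68 ± 0.24 on the log2 scale (edgeR adjusted p = 0.0249), and by a like amount without libraries 1 and 8 (-0.70, adjusted p = 0.00639), but not past the threshold without WT replicate 5 (-0.58, adjusted p = 0.0686). In the tumours, 7 of 10 endothelial markers rose and 6 of 10 immune markers fell. Of 10 fibroblast markers 6 rose and 1 fell, and of 10 mural and muscle markers 3 rose and 3 fell. Summed endothelial markers were 310 to 384 normalised CPM against 207 to 223. The part of these lists in the Hey1 result was not tested.

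Nrarp, a target that restrains Notch signalling, fell in d30 BA colon. It read 7.56, 7.89, 5.80, 6.13 and 6.36 normalised CPM against 10.5, 10.7, 9.16 and 9.11 in d30 WT colon, with no overlap, a decrease of 0.56 ± 0.13 (log2, edgeR adjusted p = 0.00285). Against d30 A colon it was lower by 0.52 ± 0.15 (log2, edgeR adjusted p = 0.0162), a call lost without d30 A replicate 2 (adjusted p = 0.0827) or d30 BA replicate 4 (0.0573). In Apcfl/fl tissue the log2 fold change of -0.38 ± 0.16 stood near the threshold (edgeR adjusted p = 0.0535). It passed in 3 of 6 alternative fits, among them DESeq2 (adjusted p = 0.0377) and edgeR with the size factors of DESeq2 (0.0475). It also passed without Apcfl/fl replicate 6, 8 or 10 or WT replicate 2 (edgeR adjusted p = 0.0194 to 0.048). BA tumours differed by -0.66 ± 0.31 (log2, edgeR adjusted p = 0.208), and by -0.91 without tumour 2 (adjusted p = 0.0426). Beside the antisense overlap of Nrarp, its levels were low throughout, at 2.80 to 12.0 normalised CPM.

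The effects of the tumour types were then compared directly, by testing the difference of the log2 fold changes in 1 edgeR fit of the 4 groups. The difference (BA tumour effect minus Apcfl/+ tumour effect) was called for 6 of the 10 genes and 39.7% of all genes, being higher for 3 of the 10 (21.9%) and lower for 3 (17.7%). Hey1 differed by -3.12 ± 0.56 (adjusted p = 0.00116), Hes1 by -2.34 ± 0.31 (adjusted p = 0.00015) and Lfng by -1.19 ± 0.32 (adjusted p = 0.0101) in that edgeR fit, all 3 higher in the Apcfl/+ effect. Notch3 differed by 1.79 ± 0.35 (adjusted p = 0.00191) and Jag1 by 1.27 ± 0.33 (adjusted p = 0.00811) in edgeR, both higher in the BA effect. These 5 genes stayed called in all 15 fits that left out a library, whereas Dll1 (1.03 ± 0.35, edgeR adjusted p = 0.0303) was lost in 11 of them, the 4 that kept it leaving out BA tumour 1, WT proximal colon 3 or Apcfl/+ tumour 2 or 3. Without each of the others in turn, its adjusted p in edgeR was 0.0574 to 0.0869. Of the 4 alternative fits with all libraries, 4 kept Hes1 and Hey1, 3 kept Notch3, Jag1 and Lfng, and 2 kept Dll1. The tumours differ in site, genotype and background as well, and these cannot be told apart in this contrast. They also differ in which libraries carry Ddx3y reads, and the part of this imbalance in the differences was not tested.

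**Figure D4:**
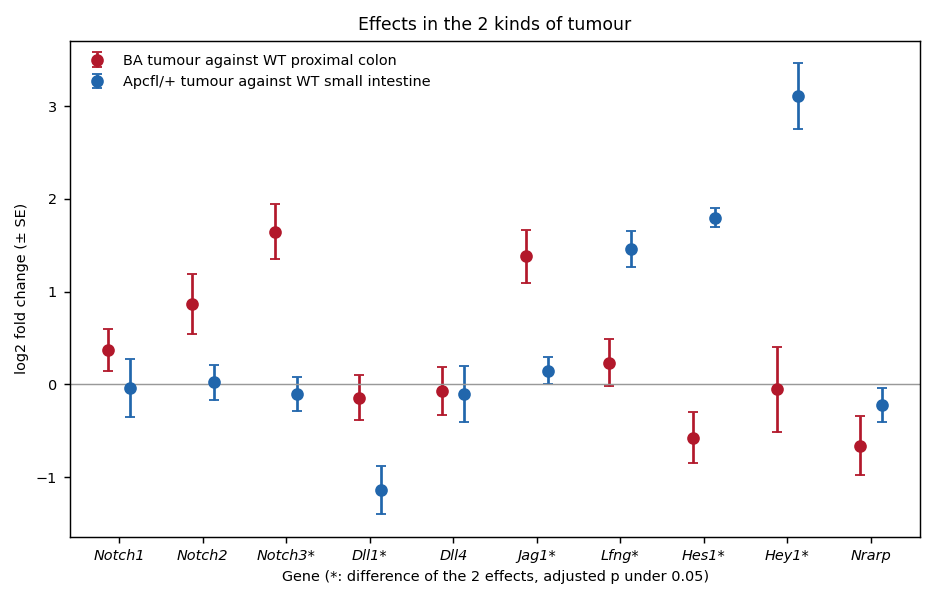
Log2 fold change ± SE (y axis) of the 10 genes (x axis) in BA tumours against WT proximal colon and in Apcfl/+ tumours against WT small intestine. Hes1, Hey1 and Lfng stand higher in Apcfl/+ tumours and Notch3 and Jag1 higher in BA tumours.

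Within each tissue, the tumour was also set against the early stage. The BA tumour effect exceeded the d30 BA effect for Notch3 by 1.94 ± 0.35 (edgeR adjusted p = 0.0019), for Notch2 by 1.12 ± 0.33 (edgeR adjusted p = 0.0277) and for Dll4 by 0.99 ± 0.28 (edgeR adjusted p = 0.0253), all log2, and 9.87% of all genes were called higher. Mean Dll4 was close between the mutant groups (BA tumour 10.8, d30 BA colon 10.5 normalised CPM). It lay further apart between their controls (WT proximal colon 11.2, d30 WT colon 21.5). Against its own WT, Dll4 fell at d30 (log2 fold change of -1.05) and was not called in the tumours (-0.07 ± 0.26). The positive difference is thus no rise of Dll4 in tumours. Jag1 rose in both stages, and the difference of its effects was 0.50 ± 0.29 (edgeR adjusted p = 0.267). Without WT proximal colon replicate 1, Notch2 (adjusted p = 0.101) and Dll4 (0.086) were not called in edgeR. Dll4 was also lost with no filter on low counts (0.88, edgeR adjusted p = 0.0628). Notch2 was also lost without BA tumour 4, WT proximal colon 3, d30 BA 2 or 4, or d30 WT 3 or 4 (edgeR adjusted p = 0.0506 to 0.0893), whereas Notch3 was called in all 16 such fits. The Apcfl/+ tumour effect exceeded that of 4-day Apcfl/fl tissue for Hey1 by 3.74 ± 0.44 (edgeR adjusted p = 6.7e-06) and for Hes1 by 0.99 ± 0.24 (edgeR adjusted p = 0.00506), where 12.4% of all genes were called higher. For Lfng and Dll1, called in both Apc comparisons, the effects differed by 0.46 ± 0.31 and -0.17 ± 0.28 (log2), neither past the threshold. In the Apc contrast the genotype (Apcfl/+ or Apcfl/fl), background and stage cannot be told apart. In the BA contrast Ddx3y was above 10 CPM in 3 of 4 tumours, 0 of 3 WT proximal colons and all d30 libraries. The part of this imbalance in the differences was not tested.

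The other genes of the pathway were taken from a list of 53. In BA tumours 8 of the 50 tested rose and 2 fell, where 7.46% and 5.71% of all genes did, and their median log2 fold change was 0.20 against 0.03 over all genes. Notch4, the remaining receptor and an endothelial gene, rose by 2.44 ± 0.28 (edgeR adjusted p = 0.00193) and Jag2 by 2.39 (log2). Heyl, a target known from smooth muscle, rose by 2.71, Mfng, another Fringe enzyme, by 1.80, and the receptor proteases Furin and Adam10 by 1.29 and 0.91 on the log2 scale. Atoh1 ran from 6.14 to 48.0 normalised CPM in the tumours and from 49.8 to 141.9 in their WT colons, a log2 difference of -1.94 ± 0.57 that was not called (edgeR adjusted p = 0.0559), although its effect differed from that in Apcfl/+ tumours by -2.21 ± 0.66 (edgeR adjusted p = 0.0169). In the same tumours the enteroendocrine factors Neurod1 and Insm1 fell by 2.50 and 1.90 (log2).

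In d30 BA colon 16 of the 48 tested rose and 13 fell, with a median log2 fold change of 0.05 against -0.03 over all genes. Of all genes 25.8% rose and 29.3% fell in this comparison. Jag2 rose by 1.72 and Notch4 by 1.40 on the log2 scale, as did Adam10 (0.77) and Furin (0.64). The E3 ligases Dtx1 and Neurl1a, which act on receptors and ligands, fell by 1.26 and 1.06, and the target Hey2 fell by 1.10. Outside the 10 genes 2 targets were tested, Hey2 among them, and both were called lower (median log2 fold change -0.98). With antibiotics 13 of 48 rose and 7 fell against d30 WT colon, where 21.8% and 17.8% of all genes did, Jag2 by 1.91 at the top and Dtx1 by -0.98 at the bottom (log2). Against untreated BA colon, treated colon had 0 of 48 higher and 3 lower, where 13% of all genes were called, among them Maml3 (-0.47) and Adam10 (-0.21). In d30 A colon 0 of 48 and under sulindac 0 of 49 were called by edgeR against d30 WT colon, with 4 and 1 at an unadjusted p under 0.05, as were 9.69% and 9.06% of all genes. Against d30 A colon, d30 BA colon had 17 of 48 higher and 13 lower, where 21.7% and 23.6% of all genes were.

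In 4-day Apcfl/fl tissue 13 of the 51 tested rose and 13 fell (median log2 fold change -0.05 against -0.00 over all genes), where 27.5% of all genes rose and 26.7% fell. Of the 11 factors of secretory fate 5 rose and 0 fell, led by Sox4 (2.22), Foxa1 (1.74) and Neurog3 (1.45), whereas Atoh1 differed by 0.09 and was not called. Beside the share of all genes that rose, this count of the list is a description only. Olfm4, a stem cell gene that responds to Notch, rose by 1.35, Jag2 by 1.13 and Dll3 by 1.86, although Dll3 stayed at 1.36 normalised CPM on average. The receptor inhibitor Numb fell by 0.93 and the ligase Dtx1 by 1.72. In Apcfl/+ tumours 19 of 50 rose and 11 fell, with a median of 0.22 against 0.03 over all genes, where 61.5% of all genes were called in either direction. Sox4 (3.00), Creb3l4 (2.49) and Foxa2 (2.35) led 6 secretory factors that rose, Neurod1 and Gfi1 fell, and Atoh1 differed by 0.32 and was not called. Notch4 rose by 1.34 and Jag2 by 1.98 there, and Ep300, a co-activator of the Notch complex, fell by 1.25. None of the 3 targets tested outside the 10 genes was called there. Rbpj was called in none of the 10 comparisons, its log2 fold changes running from -0.17 to 0.32.

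**Figure D5:**
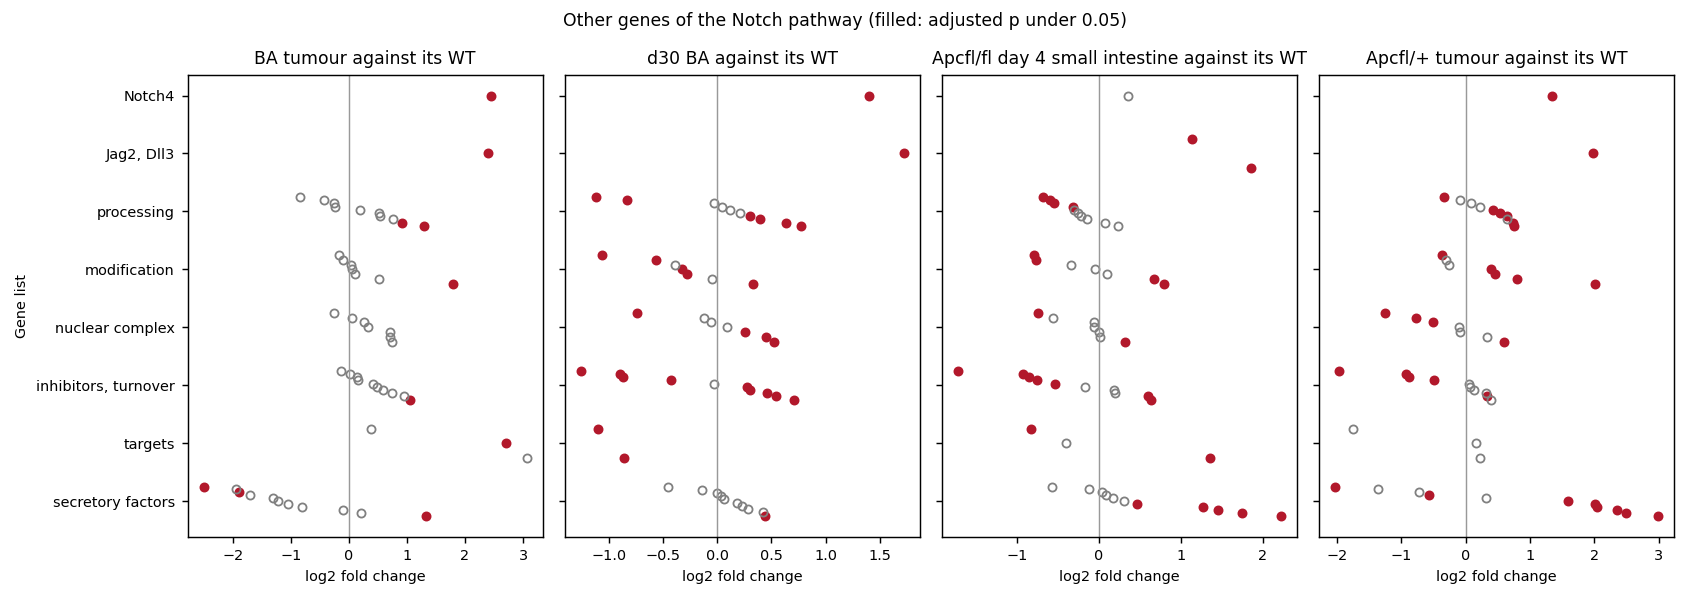
Log2 fold change (x axis, separate scale in each panel) of the other pathway genes by list (y axis) in 4 comparisons, 1 point per gene, filled where the adjusted p was under 0.05. Notch4 and Jag2 lie right of 0 in all 4 panels, and Dtx1 lies left of 0 with a filled point in d30 BA colon and in both Apc panels.

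Across the 11 groups the order of levels differed between members. Notch1 was highest in WT small intestine (70.8 normalised CPM) and lowest in d30 BA colon (17.3), and Notch2 was highest in BA tumours (125) and lowest in d30 BA colon (19.5). Neighbours in the order of group means mostly overlapped in their libraries, with all 10 neighbouring pairs overlapping for Notch1, Notch3, Dll4, Nrarp and Lfng, 9 of 10 for Hes1, Dll1, Jag1 and Hey1, and 8 of 10 for Notch2. Dll1 spanned the widest range after Hey1, from 62.6 normalised CPM in WT small intestine to 7.33 in d30 BA colon, and Hey1 ran from 18.0 to 2.095. The genes whose group means of log2 CPM tracked a member most closely, out of 18644, were Kansl1l for Notch1 (Pearson r = 0.991), Gpr155 for Dll1 (0.993), Ppp3ca for Jag1 (0.953), Mex3d for Lfng (0.981), Tm7sf2 for Hes1 (0.955), Alox12 for Hey1 (0.952), Fgd5 for Notch3 (0.952), Gm25835 for Notch2 (0.990), Lmtk3 for Dll4 (0.942) and Hspb6 for Nrarp (0.979). Each r is a description over 11 group means, some of which share a tissue.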

How the data were processed

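RNA from 53 mouse tissue libraries was sequenced and counted per gene by the authors, who trimmed reads with Trim Galore (version 0.6.4), checked them with FastQC (version 0.11.8), aligned them to GRCm38 with HISAT2 (version 2.1.0) and assigned them to genes with featureCounts (version 1.6.4). The deposited table holds these raw counts per Ensembl gene, not normalized. Whether featureCounts used strand, and how it handled reads with several positions, is not given in the sources used here, so antisense overlap and near-identical copies could move a count. Symbols were matched from GENCODE M21, which named 55240 of the 55421 identifiers.

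Groups were taken from the labels. Levels are normalised CPM, with library sizes scaled by the TMM factors of edgeR over all 53 libraries, and are divided by union exon length in kb only where genes are compared. Each comparison used the 2 groups alone: genes were kept by filterByExpr, scaled by TMM and tested, two-sided, with the quasi-likelihood test of edgeR (version 4.0.16, R 4.3.3), with Benjamini-Hochberg adjustment over all genes tested and a threshold of 0.05. Differences of effects were tested as interaction terms over 4 groups. The fits of 2 groups were checked on simulated counts with log2 changes of 2 in either direction, not on smaller changes. For the interaction terms only the sign of the contrast was checked. Alternatives were the RLE size factors of DESeq2, its Wald test (version 1.42.0), no filter on low counts, a replicate block, all d30 groups in 1 fit, and each library left out. A term for Ddx3y and a fit without Apcfl/fl libraries 1 and 8 were added after seeing the data. Totals ranged from 516985 to 32824795 reads per library, and counting error is largest in the lowest.

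Named genes were the 10 members in every comparison, and from each other pathway list up to 3 called genes with the largest and up to 3 with the smallest fold change, plus Atoh1, Olfm4, Rbpj, Notch4, Dll3 and Jag2. The members and lists were chosen with earlier results of these data known. Promoters were those of RefSeq on GRCm38.p6. No 2 libraries held identical counts.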

Additional observations from a re-analysis of the deposited data

Results flagged for a closer look

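In 4 of 90 member and group pairs searched, 1 library stood far from the rest of its group by Dixon's test, which chance alone gives in about 1 in 20. Apcfl/+ tumour 2 was the highest of its group in Notch1 (119.9 normalised CPM against 46.4 to 56.7) and in Dll4 (23.5 against 9.83 to 12.6). Apcfl/fl replicate 5 was the highest in Jag1 (43.8 normalised CPM), and d30 BA antibiotic replicate 3 the highest in Lfng (19.4 normalised CPM).

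Of 30 differences of effects tested, 11 were called by edgeR. Over all genes, 8596 of 21668, 3371 of 20637 and 5486 of 22202 were called in the contrasts below, in that order. Beside these shares, the count of 11 is no result about the pathway. Between BA and Apcfl/+ tumours the log2 effects differed for Notch3 (1.79), Jag1 (1.27), Dll1 (1.03), Lfng (-1.19), Hes1 (-2.34) and Hey1 (-3.12). Between BA tumours and d30 BA colon they differed for Notch3 (1.94), Notch2 (1.12) and Dll4 (0.99). Between Apcfl/+ tumours and 4-day Apcfl/fl tissue they differed for Hey1 (3.74) and Hes1 (0.99). Sites, backgrounds or control groups differ within these contrasts as well and cannot be told apart from genotype or stage.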

How the results depend on the processing

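Of the 130 fold changes of the 10 genes, 61 were called in some fit or reached 0.3 in size on the log2 scale, and the other 69 were small and called in none. Of these 69, 32 changed sign in at least 1 fit. Over the alternatives other than leaving out libraries, 260 values of the 61 kept their direction and side of the threshold, 22 lost the call, 6 gained it and 2 changed sign. With each library left out, 719 kept both, 40 lost the call, 23 gained it and 5 changed sign. The changes of sign among the 61 were of uncalled values in Apcfl/+ tumours, where Notch1 was -0.04, 0.019 with no filter on low counts and 0.015 with the replicate block. Leaving out libraries took Notch1 there from -0.38 to 0.054 and Dll4 from -0.41 to 0.036. In BA tumours 2 of the 10 genes were called, 0 with a term for Ddx3y, and 0 (without WT proximal colon 1) to 3 (without BA tumour 2) with a library left out. In treated against untreated BA colon 1 was called, 2 by DESeq2, 0 with no filter on low counts, 0 with all d30 groups in 1 fit, and 0 to 1 with a library left out. With a library left out, 1 to 5 of the differences between BA tumour and d30 BA effects were called against 3, the lowest without WT proximal colon 1 and the highest without BA tumour 2. The differences between Apcfl/+ tumour and Apcfl/fl effects called were 2 to 4 against 2, the highest without Apcfl/fl 8 or Apcfl/+ tumour 2. The cause was not tested.

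Replicate numbers are shared between groups, but no comparison had a correlation above 0.1 in every same-numbered pair, so the numbers do not pair the libraries. With the replicate block, 0 of the 10 genes were called in BA tumours, 0 in treated against untreated BA colon, and 2 of the differences between tumour types against 6. It ended the calls of Notch3 (log2 1.42, edgeR adjusted p = 0.0537) and Jag1 (1.19, 0.0945) in BA tumours. Between tumour types it ended those of Notch3 (log2 1.49, edgeR adjusted p = 0.0544), Jag1 (1.16, 0.0836), Lfng (-1.27, 0.055) and Dll1 (1.18, 0.0675). Between BA tumour and d30 BA effects it ended that of Dll4 (log2 1.03, edgeR adjusted p = 0.12). The block also ended the calls of Notch1 in d30 BA against d30 WT colon and of Dll1 in treated against untreated BA colon. Over all alternatives with all libraries or a planned subset, Nrarp in d30 BA against d30 A colon was called in 4 of 5 fits. Notch3 in Apcfl/fl tissue was called in 5 of 6.

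Over all genes, BA tumours gave 2527 calls, 3798 in DESeq2, 931 with the block, 168 with a term for Ddx3y and 696 to 3641 with a library left out. The d30 A colon gave 25 calls, 136 in DESeq2 and 72 with no filter, and d30 A colon with sulindac 9, 111, and 24 in the same order, 2 with the block and 29 in 1 fit of d30 groups. Apcfl/+ tumours gave 12650 calls, 8333 with the block and 7030 with a term for Ddx3y. Treated against untreated BA colon gave 2172, 1284 with the block and 1074 in 1 fit. Sulindac against untreated A colon gave 0 calls, 5 in DESeq2, 1 with no filter and 1 with the block. Differences of effects gave 8596, 3371 and 5486 calls, and 2915, 1749 and 3375 with the block. Of the other pathway genes, 10 were called in BA tumours, 17 in DESeq2, 4 with the block and 1 with a term for Ddx3y. In treated against untreated BA colon 3 were called, 7 in DESeq2, 1 with no filter and 0 in 1 fit.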
